A study of Homo sapiens with 4 samples.

Results

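The genes described here are 37 genes of glucose breakdown and of the response to low oxygen, chosen by gene name from a list of 37 symbols, out of 20137 genes measured in the MDA-MB-231 line, which comes from a triple-negative breast cancer. All 37 names were found, each under 1 gene ID, and all 37 passed the filter on low values that left 12136 genes for testing. By role they are 3 subunits of the hypoxia-inducible factor (HIF), 3 genes of its degradation, 9 HIF targets outside glycolysis, 2 glucose transporters, 15 glycolytic enzymes, 2 bifunctional regulators of phosphofructokinase and 3 genes that set the fate of pyruvate. RNA was sequenced from cells with a knockdown of AURKA, the gene of the mitotic kinase Aurora A (titles shA, 2 libraries), and from control cells (titles shC, 2 libraries). The series text calls the controls mock-transfected, and the labels do not say whether they carried a hairpin, how many hairpins or clones the knockdown rests on, or when the cells were taken. Every culture was kept in Leibovitz's L-15 medium with serum, which as background carries galactose and pyruvate in place of glucose, and no label gives an oxygen level.

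Glycolysis turns glucose into pyruvate in the cytosol. Hexokinase, phosphofructokinase and pyruvate kinase catalyse its regulated steps, and lactate dehydrogenase turns pyruvate into lactate. The factor HIF consists of an oxygen-labile alpha subunit (HIF1A or EPAS1) and the stable partner ARNT. In oxygen the EGLN prolyl hydroxylases mark the alpha subunit and VHL directs it to degradation, so control is largely at the protein level and RNA levels of HIF1A say little about HIF activity. In low oxygen HIF binds the core words ACGTG or GCGTG in DNA and raises most glycolytic genes together with genes such as VEGFA and CA9. Many tumour lines keep glycolytic genes high in ordinary oxygen as well.

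The bases ahead of the start of 5 of the genes are shown as examples from the range described below. ARNT had the largest difference in size, HK2 the largest among glycolytic enzymes and CA9 the widest gap between controls in proportion. PGK1 and LDHA, textbook HIF targets, differed by 0.04 each on the log2 scale. EPAS1, with the largest rise (0.33), is not shown. The sequences are those of RefSeq (GRCh38.p14), the 250 bases before the annotated start, 5′ to 3′ on the strand of the gene, with ACGTG or GCGTG in capitals on either strand, so that CACGT and CACGC are the same words read from the other strand.
ARNT (chr1:150876600-150876849, minus strand): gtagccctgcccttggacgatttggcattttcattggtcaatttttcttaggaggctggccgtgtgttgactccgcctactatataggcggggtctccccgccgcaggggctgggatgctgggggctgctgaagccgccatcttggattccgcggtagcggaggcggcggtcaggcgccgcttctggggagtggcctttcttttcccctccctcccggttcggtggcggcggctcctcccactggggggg
CA9 (chr9:35673678-35673927, plus strand): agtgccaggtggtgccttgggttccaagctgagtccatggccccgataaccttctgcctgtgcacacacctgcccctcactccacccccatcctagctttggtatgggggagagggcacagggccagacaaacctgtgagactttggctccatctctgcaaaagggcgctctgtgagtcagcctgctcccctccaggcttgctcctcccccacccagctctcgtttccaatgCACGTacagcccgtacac
HK2 (chr2:74834920-74835169, plus strand, the second of 2 listed starts): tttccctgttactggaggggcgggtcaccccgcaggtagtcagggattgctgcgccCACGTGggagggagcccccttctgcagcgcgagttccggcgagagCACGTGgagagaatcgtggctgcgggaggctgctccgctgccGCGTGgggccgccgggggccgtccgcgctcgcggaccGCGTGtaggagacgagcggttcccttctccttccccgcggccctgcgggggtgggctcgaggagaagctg
PGK1 (chrX:78103998-78104247, plus strand): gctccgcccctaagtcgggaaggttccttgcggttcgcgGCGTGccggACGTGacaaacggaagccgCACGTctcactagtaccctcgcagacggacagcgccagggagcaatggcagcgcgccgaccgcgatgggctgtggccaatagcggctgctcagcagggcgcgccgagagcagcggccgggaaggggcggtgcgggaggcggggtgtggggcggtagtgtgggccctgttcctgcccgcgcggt
LDHA (chr11:18394313-18394562, plus strand, the first of 2 listed starts): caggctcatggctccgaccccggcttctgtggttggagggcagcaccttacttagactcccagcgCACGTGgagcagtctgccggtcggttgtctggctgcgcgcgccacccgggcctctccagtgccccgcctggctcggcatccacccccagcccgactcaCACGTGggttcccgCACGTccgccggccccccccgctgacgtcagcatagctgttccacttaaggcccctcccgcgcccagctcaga
The ARNT stretch holds 0 of these words, that of CA9 holds 1, that of PGK1 3, that of LDHA 5 and that of HK2 6. In LDHA and HK2 some words overlap in CACGTG, the E-box, which other factors also bind. Each E-box reads ACGTG on both strands and so counts as 2 words, and the LDHA and HK2 stretches hold 2 E-boxes each.

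Values are FPKM, a transcript level scaled by length and depth, and differences are knockdown minus control on log2(FPKM + 1), a scale that understates changes of low genes. Roughly estimated depths were 17300000 and 24100000 fragments in control replicates 1 and 2, and 21100000 and 27600000 in the knockdown. AURKA had 124 and 99.1 FPKM in control cells and 22.3 and 23.7 FPKM in shA cells, 4.86-fold lower, with an adjusted p in limma of 0.0819 without a run term and 0.000696 with it. Row order and loci matched within a replicate number and not across, so replicates 1 and 2 were each taken as a quantification run of their own. A difference is therefore given for run 1 and run 2, and each test is given from a fit that leaves the run out and from a fit that holds it. The line's markers VIM, CD44 and AXL were at 212 FPKM or more in every library, and ESR1, PGR and CDH1 were at or below 0.271 FPKM. Those levels are as the triple-negative mesenchymal type has them. FN1 and SPARC, also set down as high in that type, were lower, at 29.9 to 61.7 and 16.2 to 22.7 FPKM. EPCAM was at 2.49 to 3.30 FPKM, and ERBB2 at 16.5 to 20.2 FPKM, which is not absent and overlaps the range of SPARC. KRT5, KRT14, PTPRC and HBB, markers of other cells, were at or below 0.0535 FPKM. In bulk RNA, fewer cells in a state and less RNA per cell cannot be told apart.

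None of the 37 genes passed at an adjusted p under 0.05 in either fit of limma (Benjamini-Hochberg over all 12136 genes). Over all tested genes 0% were called without the run, and 3.44% with a run term (1.53% higher and 1.90% lower). The smallest adjusted p among the 37 was 0.797 without the run and 0.0807 with it, both for ARNT. At an unadjusted p under 0.05, 0 of the 37 passed without the run, against 6.37% of all tested genes, and 6 with the run, 1 higher and 5 lower, against 22.1% of all. The largest difference was -0.42 on the log2 scale, and 6 of the 37 reached 0.25 in size, against 25.6% of all tested genes. The mean was lower in the knockdown for 23 of the 37, against 47.7% of all. In run 1 24 were lower and in run 2 16, against 51.0% and 45.4% of all tested genes. Without control replicate 1 the mean was lower for 19 of the 37. Knockdown values lay wholly above or below the controls for 11 of the 37, 3 above and 8 below, against 35.9% of all tested genes. With the run as a term, the 95% interval of the difference lay within 0.5 log2 units (1.41-fold) of 0 for 28 of the 37. The share of all tested genes with such an interval was not counted. Without the run the intervals were wider and reached beyond that limit for more genes. The intervals thus bound the change of those genes in the fit with the run only, and a p above the threshold does not show that a level stayed the same. Exact permutation over 2 against 2 libraries cannot go below a two-sided p of 0.333, so no single value can reach the threshold that way.

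**Figure D1:**
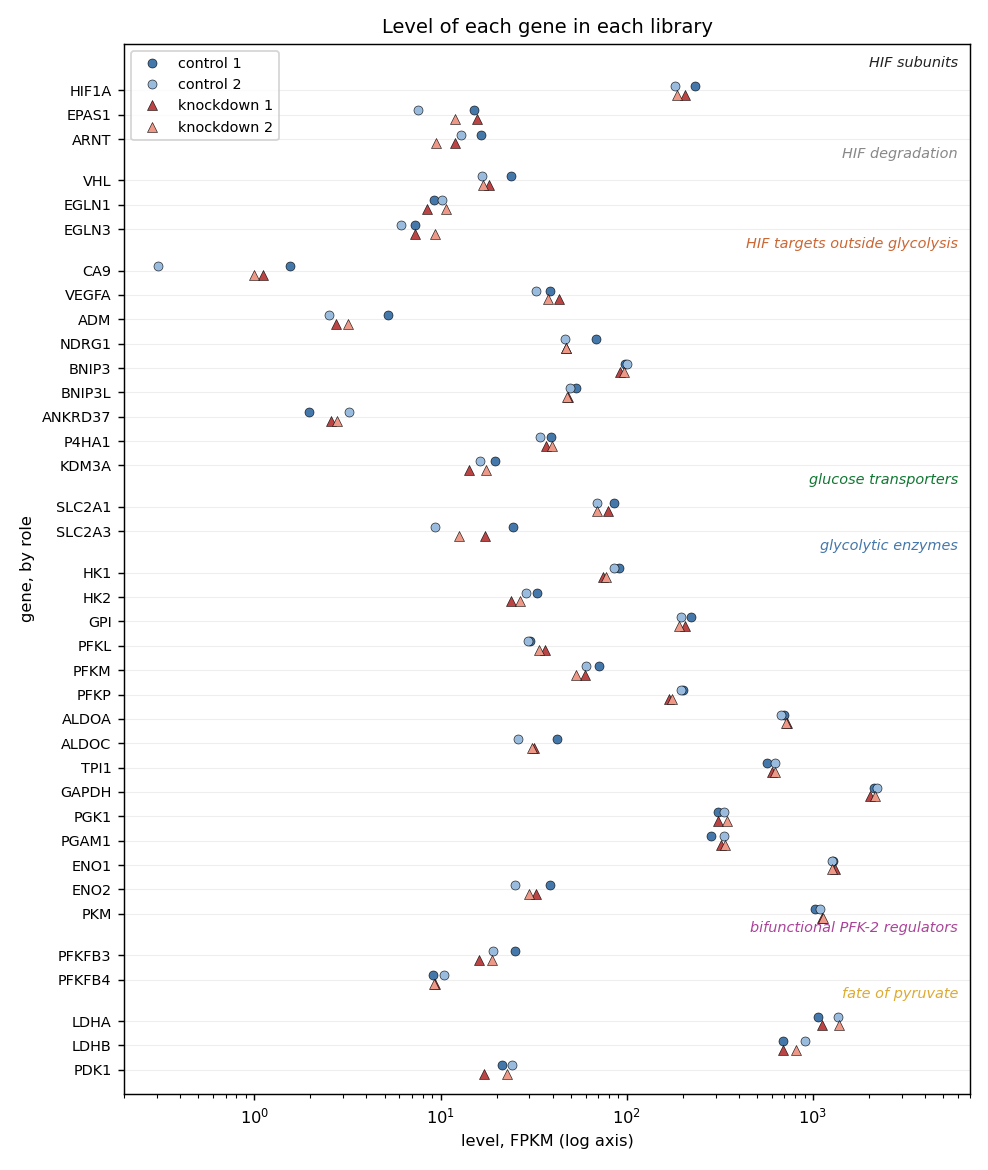
Level of each of the 37 genes in each library in FPKM on a log axis, with circles for the controls and triangles for the knockdown, ordered by role. GAPDH, ENO1, LDHA and PKM are highest, at 1027 FPKM or more in every library, and CA9 is lowest, at 0.304 to 1.55 FPKM, and for most genes the circles and triangles overlap.

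Among the HIF subunits, ARNT, the shared partner of the alpha subunits, came nearest to a call. ARNT (ENSG00000143437, chromosome 1, 150782181 to 150849244, GRCh37) had 16.4 and 12.9 FPKM in control cells and 12 and 9.47 FPKM in shA cells. Both knockdown values lay below both controls, and the difference was -0.42 in run 1 and -0.41 in run 2. The mean was 14.7 ± 2.47 FPKM in control cells and 10.7 ± 1.79 FPKM in shA cells (SD, n = 2 each), 1.37-fold lower, with a log2 difference of -0.42 (standard error 0.19 without the run and 0.10 with it). The difference of ARNT was -0.26 without control replicate 1 or without knockdown replicate 2, -0.57 without knockdown replicate 1 and -0.58 without control replicate 2. Its adjusted p in limma was 0.797 without the run and 0.0807 with it, and 0.0353 or 0.0395 when median-of-ratios or upper-quartile scaling was added to the fit with the run, settings that called 7.30% and 7.33% of all genes. HIF1A, the main oxygen-labile subunit, was the most abundant HIF gene, at 233 and 181 FPKM in control cells and 204 and 186 FPKM in shA cells. EPAS1, the alternative alpha subunit, had 15.2 and 7.54 FPKM in control cells and 15.8 and 11.97 FPKM in shA cells. The log2 difference of EPAS1 was 0.33 (adjusted p in limma 0.922 without and 0.257 with the run), 0.05 in run 1 and 0.60 in run 2. HIF1A exceeded EPAS1 between 12.9-fold and 24.0-fold in all 4 libraries, and for both genes the groups overlapped. In the files HIF1A shares its locus with SNAPC1.

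Of the degradation genes, VHL, the substrate receptor of the ubiquitin ligase, had 23.9 and 16.7 FPKM in control cells and 18.1 and 16.9 FPKM in shA cells. The hydroxylase EGLN1 had 9.25 and 10.2 FPKM against 8.50 and 10.7 FPKM. EGLN3, a hydroxylase that is itself a HIF target, had 7.31 and 6.17 FPKM in control cells and 7.26 and 9.37 FPKM in shA cells. The groups overlapped for all 3 genes. EGLN3 had the largest difference, 0.26 (standard error 0.19, adjusted p in limma 0.875 without the run and 0.374 with it), and it rested on run 2, at -0.01 in run 1 and 0.53 in run 2, and was 0.098 to 0.43 with 1 library left out. Control replicate 1 was the highest library for VHL, and knockdown replicate 2 was the highest for EGLN1 and EGLN3.

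The 9 HIF targets outside glycolysis did not move together. Their median difference was -0.08, beside 0.01 over all tested genes, with -0.14 in run 1 and 0.11 in run 2. This median was 0.0087 without control replicate 1, -0.0179 without knockdown replicate 1 and -0.15 without control replicate 2. Of the 9, 4 had a higher and 5 a lower mean in the knockdown, 6 had opposite signs in the 2 runs, and 2 had knockdown values below both controls. Over all tested genes 3991 of 12136 had opposite signs, and 16.6% had knockdown values below both controls. NDRG1, a stress-responsive gene often used as a readout of hypoxia, had the largest difference. It had 68.1 and 46.8 FPKM in control cells and 47.2 and 46.9 FPKM in shA cells, so that 1 control stood above 3 libraries that lay close together. The log2 difference was -0.26 (standard error 0.20, adjusted p in limma 0.884 without and 0.288 with the run), -0.52 in run 1 and 0.004 in run 2, and it was 0.0087 without control replicate 1.

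ADM, the vasodilator peptide adrenomedullin, had 5.19 and 2.52 FPKM in control cells and 2.75 and 3.18 FPKM in shA cells. CA9, the membrane carbonic anhydrase that is among the most used hypoxia markers, had 1.55 and 0.304 FPKM in control cells and 1.11 and 0.991 FPKM in shA cells. For both genes the 2 knockdown values lay between the 2 controls. CA9 was thus near the filter limit of 1 FPKM, with the controls on either side of the knockdown. VEGFA, the angiogenic growth factor, had 38.6 and 32.3 FPKM in control cells and 43.0 and 37.7 FPKM in shA cells, which of the 9 was alone in being higher in both runs (0.15 and 0.21, adjusted p in limma 0.896 without and 0.259 with the run). The groups still overlapped.

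BNIP3 and BNIP3L, receptors that mark mitochondria for autophagy, had small differences. BNIP3 had 97.9 and 100.4 FPKM in control cells and 92.0 and 96.0 FPKM in shA cells. BNIP3L had 53.1 and 49.5 FPKM in control cells and 48.1 and 47.6 FPKM in shA cells. Both were lower in both runs without overlap, by -0.08 and -0.10 on the log2 scale, and a lack of overlap in that direction was found for 16.6% of all tested genes. P4HA1, a collagen prolyl hydroxylase, and KDM3A, a histone demethylase, had log2 differences of 0.07 and -0.16 with opposite signs in the runs. ANKRD37 was at 1.96 to 3.20 FPKM, with the 2 controls at the ends of that range.

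The glucose transporters differed more between the controls than between the groups. SLC2A1 (GLUT1), the basal transporter, had 84.9 and 69.5 FPKM in control cells and 79.4 and 69.4 FPKM in shA cells. Its log2 difference was -0.05 (standard error 0.15, adjusted p in limma 0.986 without and 0.764 with the run), with a sign that turned without control replicate 1 or knockdown replicate 2. SLC2A3 (GLUT3), a high-affinity transporter, had 24.4 and 9.34 FPKM in control cells and 17.3 and 12.5 FPKM in shA cells. The knockdown values of SLC2A3 lay between the controls. The ratio of SLC2A1 to SLC2A3 was 3.48 and 7.44 in the controls and 4.59 and 5.53 in the knockdown.

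The 15 glycolytic enzymes differed little in summed level and in median. GAPDH, ENO1 and PKM weigh most in the sum, so it says little about the less abundant enzymes. Their summed level was 7022 and 7157 FPKM in control cells and 7052 and 7201 FPKM in shA cells, between 0.940% and 1.002% of all FPKM. Of the 15, 7 had a higher and 8 a lower mean, and the median difference was -0.01, with -0.07 in run 1 and 0.01 in run 2. Knockdown values lay above both controls for 3 and below both for 4, against 19.4% and 16.6% of all tested genes. None passed in either fit, and for 14 of the 15 the 95% interval with a run term lay within 0.5 log2 units of 0, HK2 being the exception at -0.53 to -0.01. Without the run the intervals of HK2 (-0.63 to 0.09), PFKL (-0.07 to 0.54), PFKM (-0.57 to 0.13), ALDOC (-0.67 to 0.52) and ENO2 (-0.56 to 0.54) reached beyond 0.5. HK2 shared with HK1, PFKM, PFKP and PFKL an unadjusted p under 0.05 in limma with a run term. These were 5 of the 15, 1 higher and 4 lower, against 22.1% of all tested genes.

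The abundant enzymes had small differences. Taking the 7 enzymes with a mean of at least 250 FPKM, a limit chosen after the values were seen, each difference lay between -0.05 and 0.10. GAPDH, which oxidises glyceraldehyde phosphate, had 2130.1 and 2199 FPKM in control cells and 2027 and 2160.4 FPKM in shA cells. PGK1, the first ATP-yielding kinase of the pathway, had 307 and 331 FPKM against 309 and 347 FPKM. The aldolase ALDOA (702 and 675 against 724 and 713 FPKM) and pyruvate kinase PKM (1027 and 1086 against 1121 and 1132 FPKM) had knockdown values above both controls, with log2 differences of 0.06 and 0.09. The isomerase TPI1, the mutase PGAM1 and the enolase ENO1 had differences of 0.04, 0.10 and 0.03 with overlapping groups. Several of these genes have processed copies in the genome that could take or lend reads, and TPI1 and ENO2 share 1 locus in the files with LRRC23 and SPSB2, so their split is uncertain.

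Of the 8 less abundant enzymes, 7 had a lower mean in the knockdown, where 47.7% of all tested genes had one. In run 1 7 of the 8 were lower and in run 2 5. Control replicate 1 was the highest library for 7 of the 8, against 33.9% of all tested genes. The hexokinases and phosphofructokinases had the largest differences. HK1, the constitutive hexokinase, had 90.6 and 85.3 FPKM in control cells and 74.1 and 77.3 FPKM in shA cells. HK2, the inducible hexokinase of tumours, had 32.8 and 28.6 FPKM in control cells and 23.7 and 26.8 FPKM in shA cells. Both knockdown values lay below both controls for each. HK2 had a mean of 30.7 ± 2.96 FPKM against 25.3 ± 2.18 FPKM (SD, n = 2 each), 1.22-fold lower, with a log2 difference of -0.27 (standard error 0.14, adjusted p in limma 0.823 without the run and 0.216 with it). The HK2 difference was -0.45 in run 1 and -0.09 in run 2, and -0.18 without control replicate 1. The ratio of HK1 to HK2 stayed between 2.76 and 3.12 in all 4 libraries.

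Phosphofructokinase, the committed step, has 3 isozymes whose values did not all lie on 1 side of the controls. PFKL, the liver type, had 30.1 and 29.4 FPKM in control cells and 36.5 and 33.9 FPKM in shA cells. PFKM, the muscle type, had 71.0 and 60.3 FPKM in control cells and 59.4 and 53.1 FPKM in shA cells. PFKP, the platelet type and the most abundant of the 3, had 199 and 195 FPKM in control cells and 169 and 175 FPKM in shA cells. Knockdown values lay above both controls for PFKL and below both for PFKM and PFKP, with log2 differences of 0.24, -0.22 and -0.20. In limma their adjusted p lay between 0.822 and 0.857 without the run and between 0.175 and 0.204 with it. PFKL made up 10.0% and 10.3% of the summed level of the 3 in the controls and 13.8% and 12.9% in the knockdown, and PFKP between 63.7% and 68.6% in all libraries. In the files PFKM shares its locus with SENP1.

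The brain-type isozymes ALDOC and ENO2 differed between the controls instead. ALDOC had 42.1 and 25.9 FPKM in control cells and 31.8 and 30.8 FPKM in shA cells. ENO2 had 38.6 and 25.2 FPKM in control cells and 32.4 and 29.7 FPKM in shA cells. For both genes the knockdown values lay between the controls, as for ADM, CA9 and SLC2A3. ENO1 exceeded ENO2 by 33.1-fold to 50.1-fold and ALDOA exceeded ALDOC by 16.7-fold to 26.1-fold, with the 2 controls at the ends of both ranges. GPI, the isomerase of the step after hexokinase, had a difference of -0.07 with overlapping groups.

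PFKFB3 and PFKFB4 make and break the bisphosphate that activates phosphofructokinase, and PFKFB3 is the form with high synthesis activity. PFKFB3 had 25.2 and 19.1 FPKM in control cells and 16.0 and 18.9 FPKM in shA cells. Both knockdown values lay below both controls, but knockdown replicate 2 and control replicate 2 were nearly level. The log2 difference of PFKFB3 was -0.32 (standard error 0.18, adjusted p in limma 0.848 without the run and 0.266 with it), -0.62 in run 1 and -0.02 in run 2, and -0.13 without control replicate 1. PFKFB4 had 9.16 and 10.4 FPKM in control cells and 9.35 and 9.25 FPKM in shA cells.

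For the fate of pyruvate, LDHA, the lactate dehydrogenase subunit induced by HIF, had 1066 and 1364 FPKM in control cells and 1124 and 1370 FPKM in shA cells. LDHB, the subunit of oxidative tissues, had 693 and 903 FPKM in control cells and 694 and 807 FPKM in shA cells. Both were higher in the 2 libraries of run 2, and within a run the LDHA values were almost the same, with differences of 0.08 and 0.01. The ratio of LDHA to LDHB was 1.54 and 1.51 in the controls and 1.62 and 1.70 in the knockdown. PDK1, a kinase that inhibits pyruvate dehydrogenase, had 21.4 and 24.1 FPKM in control cells and 17.0 and 22.7 FPKM in shA cells. Its log2 difference was -0.20 (standard error 0.18, adjusted p in limma 0.909 without and 0.306 with the run), and it was -0.0013 without knockdown replicate 1. PDK1 shares its locus with ITGA6 in the files.

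Glycolytic enzymes and the HIF targets outside glycolysis were then set side by side. The median difference was -0.01 for the 15 enzymes and -0.08 for the 9 targets, a gap of 0.07. In run 1 the gap was 0.07 (-0.07 for the enzymes and -0.14 for the targets), and in run 2 it was -0.10 (0.01 and 0.11). The order of the medians thus differed between the runs, and it also turned without control replicate 1, to -0.02. The enzymes were of like sign in both runs for 12 of 15 genes, and the targets for 3 of 9, where 35.3% of all tested genes were higher and 31.7% lower in both runs. These are descriptions with no test.

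**Figure D2:**
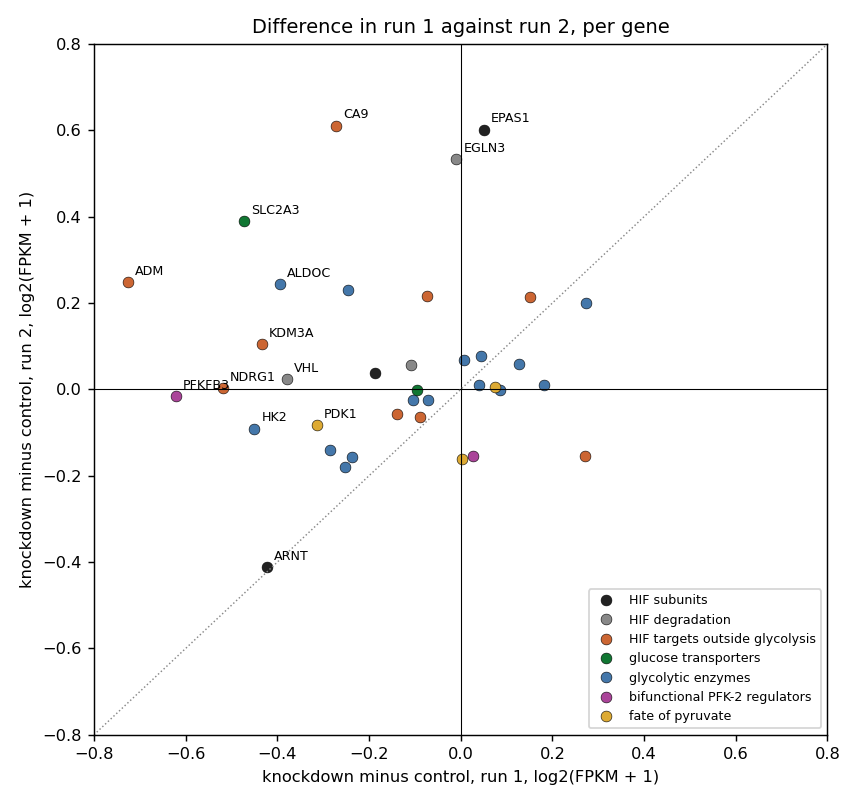
Difference between knockdown and control in run 1 (horizontal) and run 2 (vertical) on log2(FPKM + 1), 1 point per gene, coloured by role, with names where a difference exceeded 0.3 in either run. Of the genes with names ARNT lies nearest to the diagonal, at -0.42 in run 1 and -0.41 in run 2, while ADM, CA9 and SLC2A3 lie to the upper left.

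The difference between the 2 controls was larger than that between the groups for 25 of the 37 genes, against 64.8% of all tested genes. It was so for 8 of the 9 HIF targets outside glycolysis and for 7 of the 15 glycolytic enzymes. Control replicate 1 exceeded control replicate 2 by more than 1.5-fold in 6 genes, EPAS1, CA9, ADM, SLC2A3, ALDOC and ENO2 (14.4% of all tested genes), and knockdown replicate 1 exceeded knockdown replicate 2 by as much in 0 (8.03% of all). These genes were named after their values were seen. For 18 of the 37 control replicate 1 was the highest library, against 33.9% of all tested genes. Control replicate 1 also had the lowest estimated depth and the lowest mitochondrial share, 16.0% against 17.0% to 19.0% in the other libraries, and the part of these in the gap was not tested.

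**Figure D3:**
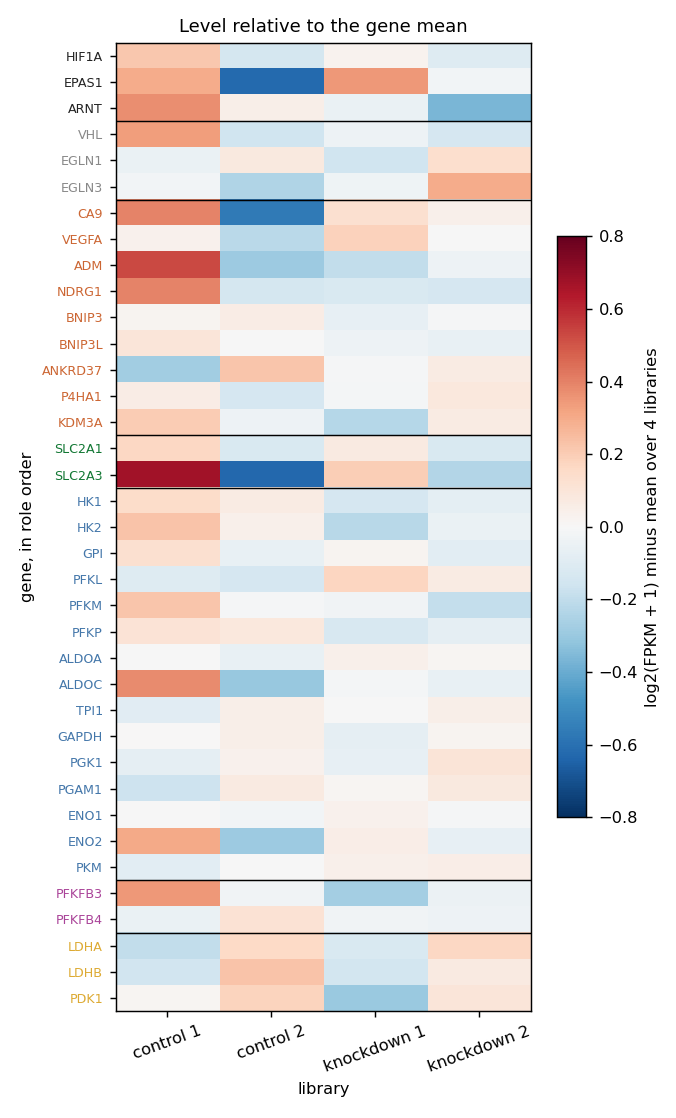
Each gene's log2(FPKM + 1) minus its mean over the 4 libraries, with genes in rows by role and libraries in columns. SLC2A3, ADM, CA9, NDRG1 and ALDOC have their highest value in control replicate 1, and rows of abundant enzymes such as ENO1 and GAPDH are nearly white.

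The transcript rows showed which isoforms carried these levels, as estimated by the authors' program. PKM is spliced to either of a pair of exclusive exons, giving the M1 form of muscle or the M2 form of proliferating cells. Transcripts with the M2 exon held 93.8% and 93.6% of PKM in the controls and 93.3% and 94.2% in the knockdown, and those with the M1 exon 5.50%, 5.51%, 5.97% and 4.96% in the same order. The isoform balance of PKM thus moved little across the 4 libraries. LDHB, ENO1 and BNIP3 each had a single transcript with at least 95.8% of the gene in every library, and HIF1A had its main transcript at 70.8% to 79.6%. HK1 varied with the run, its main transcript taking 92.5% and 97.5% in the run 1 libraries and 84.5% and 79.6% in the run 2 libraries of control and knockdown.

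Promoters were listed for 32 of the 37 genes, 56 starts in all. In the 250 bases before the start, ACGTG or GCGTG on either strand stood in 33 of the 56 (58.9%), against 55.3% of 13426 promoters of tested genes and 43.2% of 35093 promoters in the table. For ACGTG alone the share was 37.5%, against 22.5% and 18.5%, and for the E-box CACGTG, which contains ACGTG, 14.3%, against 8.24% and 6.34%. The 7 listed starts of HIF targets outside glycolysis all held a word, as did 17 of 34 starts of glycolytic enzymes. These are counts of starts and not of genes, and the shares are not comparable by gene. HK1 and PFKM have several starts each, most without a word, and among the enzymes only PGAM1 and PKM had no word at any listed start. The starts of KDM3A overlap and share the same word, and no start was listed for VEGFA, NDRG1 or BNIP3L. PGK1 and LDHA, with 3 and 5 words in the stretches printed above, had differences of 0.04 and 0.04, HK2 with 6 had -0.27, and ARNT with 0 had -0.42. The counts of LDHA and HK2 take each E-box on both strands, so their separate sites are fewer than their words. A matching word is a description of the sequence and does not show that a factor bound there.

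Further genes of the same pathways, from lists set down beside the 37, included a few that passed with a run term. In simulated data 9.87% of the calls of that fit were false, at an adjusted p threshold of 0.05. Of 45 other HIF targets 41 were tested, and among them 1 was called higher and 0 lower, beside 1.53% and 1.90% of all tested genes. The list median was 0.03. PLOD2, a lysyl hydroxylase of collagen, had 37.7 and 37.04 FPKM in control cells and 48.4 and 57.3 FPKM in shA cells (log2 0.48, adjusted p in limma 0.569 without and 0.0486 with the run). With a pseudocount of 0.1 in the fit with the run, the adjusted p of PLOD2 in limma was 0.0654 and the call was lost. LOX, a lysyl oxidase that cross-links collagen, had 9.49 and 7.11 FPKM in control cells and 12.7 and 11.3 FPKM in shA cells (log2 0.49, adjusted p in limma 0.760 without and 0.0739 with the run). LOX did not pass there, but it did at 0.0336 and 0.0290 when median-of-ratios or upper-quartile scaling was added to the fit with the run, and its difference was 0.30 without control replicate 2.

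Of 23 genes of the pentose phosphate pathway and glycogen 21 were tested, 17 had a higher and 4 a lower mean, where 47.7% of all tested genes had a lower mean. With the run in the fit 1 of the 21 was called higher and 1 lower, beside 1.53% and 1.90% of all. The list median was 0.13. PGLS, the lactonase of the pentose phosphate pathway, had 33.9 and 28.1 FPKM in control cells and 55.1 and 42.7 FPKM in shA cells (log2 0.64, adjusted p in limma 0.569 without and 0.0173 with the run). GYG1, glycogenin, which primes glycogen synthesis, had 19.8 and 20.1 FPKM in control cells and 13.2 and 10.4 FPKM in shA cells (log2 -0.72, adjusted p in limma 0.518 without and 0.0314 with the run). Both runs gave the same direction for each, 0.68 and 0.59 for PGLS and -0.55 and -0.89 for GYG1. Among 15 other HIF pathway factors (14 tested), 46 other glycolysis and pyruvate genes (29 tested) and 6 genes of glucose sensing by MondoA (6 tested), 0 passed, with list medians of 0.05, 0.08 and -0.07.

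In those 3 lists the largest differences were those of ARNT2, SLC2A6 and TXNIP. ARNT2, a paralog of ARNT, had 5.94 and 5.15 FPKM in control cells and 4.06 and 3.78 FPKM in shA cells (log2 -0.41, adjusted p in limma 0.781 without and 0.145 with the run). Like ARNT, it was lower in both runs with no overlap. SLC2A6, a transporter of the same family as SLC2A1, had 2.66 and 2.18 FPKM in control cells and 3.87 and 3.44 FPKM in shA cells (log2 0.45, adjusted p in limma 0.786 without and 0.148 with the run). TXNIP, a restraint on glucose uptake that rises with glucose through MondoA, had 289 and 24.4 FPKM in control cells and 34.3 and 12.4 FPKM in shA cells (log2 -1.98, adjusted p in limma 0.850 without and 0.0546 with the run). TXNIP was lower in both runs, by a log2 difference of -3.04 in run 1 and -0.92 in run 2. Control replicate 1 stood far above the other 3 libraries, the groups overlapped, and the difference was -0.22 without that library, in a fit without the run. TXNIP passed in limma at an adjusted p of 0.0053 and 0.0049 when median-of-ratios or upper-quartile scaling was added to the fit with the run, at 0.0497 in that fit with a filter at 5 FPKM, and at 0.0402 without control replicate 2. Control replicate 1 was also the highest library for SLC2A3, ADM and CA9, and the part of that library in these results beyond the values without it was not tested.

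**Figure D4:**
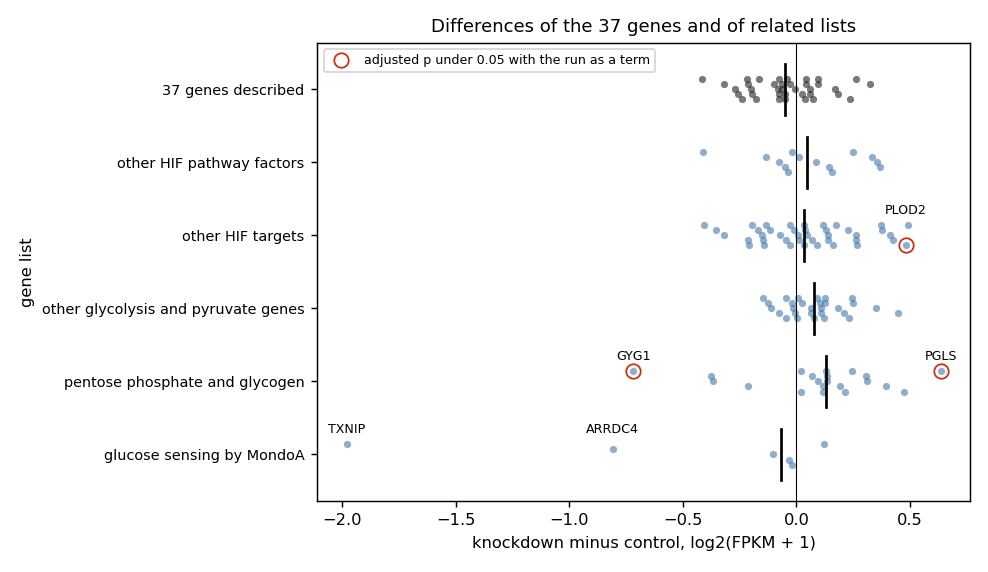
Difference between knockdown and control on log2(FPKM + 1) for the 37 genes and for the 5 related lists, 1 point per gene, with a bar at each median and a ring around genes with an adjusted p under 0.05 with a run term. The 37 genes hold no ring and lie between -0.42 and 0.33, while PLOD2, GYG1 and PGLS are ringed in the related lists.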

How the data were processed

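Each library came as a table of 81493 transcripts without a stated unit. The values the authors deposited behave as FPKM, and they were taken as such. Tools in the submitters' processing notes are bcl2fastq 2.19 and HTSeq 0.8.0, and the build there is hg38, while the coordinates are those of GRCh37 (a locus on chromosome 4 ends at 191013719), and the sources used here do not give the program behind the FPKM. Starts in the files count from 0 and are given here from 1. The 81412 transcripts shared by the 4 tables were summed by gene ID. Row order and loci matched within a replicate number and not across (1707 loci differed), so the number was also taken as the quantification run, which the labels do not name. Depth was estimated from the value of 1 read in genes with 1 transcript and is rough.

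The test was limma-trend (limma 3.58.1, R 4.3.3), without the run, on log2(FPKM + 1). A gene was tested if 2 or more libraries reached 1 FPKM. Alternatives were the run as a term, a pseudocount of 0.1, no filter or 5 FPKM, median-of-ratios and upper-quartile scaling, and leaving out each library. The script was tested on simulated data. The design text calls the libraries biological replicates, and p-values measure the spread between these samples. The members and lists were chosen with earlier results of these data known. Full values and tests are given for genes past the threshold in either fit, for members whose groups did not overlap with the same sign in both runs and a log2 difference of at least 0.25, and for the largest difference in each role or list. Isozyme pairs are given with values, and other members with values were picked after these were seen. GENCODE 29 served for transcript lengths and PKM exons. A gene of the list of other HIF targets is not reported here and is left out of the counts, median and plot of that list.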

Additional observations from a re-analysis of the deposited data

How the results depend on the processing

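No member passed in any setting without the run, and 1 (ARNT) passed with the replicate block and median-of-ratios or upper-quartile scaling. The number of genes called over the whole table was 0 as reported and 417 with the replicate block. It was 1 with a filter at 5 FPKM, 3 with median-of-ratios and 2 with upper-quartile scaling, without the block. With the block it was 424 at 5 FPKM, 287 with a pseudocount of 0.1, and 887 and 890 with those scalings. Leaving out 1 library gave 6 to 15 calls. AURKA had a log2 difference of -2.22 as reported (adjusted p 0.0819). It did not pass with a filter at 5 FPKM (0.0768), a pseudocount of 0.1 (0.0636) or no filter (0.501), each without the block. It passed at -2.24 (median-of-ratios) and -2.23 (upper-quartile) on rescaled values, -2.22 with the block alone or with the block and a filter at 5 FPKM, -2.27 with the block and a pseudocount of 0.1, -2.24 and -2.23 with the block and the scalings, and -2.38 to -2.06 without 1 library. NDRG1 changed sign without control replicate 1 (range -0.52 to 0.0087 over the libraries left out), and SLC2A1 did without control replicate 1 or knockdown replicate 2 (0.095 and 0.048, range -0.19 to 0.095). The cause was not tested. The median of the HIF targets was -0.08 as reported, 0.0087 without control replicate 1 and -0.0179 without knockdown replicate 1. That of the enzymes lay between -0.03 and -0.0025 without 1 library. Median-of-ratios scaling moved the median over all genes from 0.01 to -0.01. At 5 FPKM 34 members and 6 of the 9 HIF targets were tested. Nothing in the labels ties a replicate number to a shared batch, and the run was inferred from row order and loci. Across all 12136 genes the differences between replicates 1 and 2 in control and knockdown correlated at r = 0.645. Depth is known only roughly, so no counting interval was set on the levels themselves, such as those of CA9.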
